A study of Mus musculus with 6 samples.

Results

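The nitric oxide and cyclic GMP brake of the megakaryocyte was examined here through 7 genes, which were Gucy1a1, Gucy1b1, Prkg1, Mrvi1, Vasp, Pde5a and Pde3a. They were taken by name as genes of this pathway and were read by 13 of the 41174 non-control probes of the array. Of these, 12 probes for 6 genes were bright enough to be tested, among 23952 probes tested in all. The only probe of Pde3a was well above background on 2 of the 3 arrays of each group and was not tested.

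Nitric oxide from the vessel wall enters platelets and binds the haem of soluble guanylyl cyclase, an enzyme built from an alpha and a beta subunit that makes cyclic GMP. Cyclic GMP activates the cyclic GMP-dependent protein kinase, which phosphorylates proteins that restrain calcium release and actin assembly, so that platelets are harder to activate. Phosphodiesterases end the signal by cleaving the cyclic nucleotide. Platelets receive this machinery from the megakaryocyte that forms them.

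The arrays compared primary megakaryocytes grown from mouse fetal livers of stage E13.5, on the C57BL/6 strain background. The p45-/- group carries no p45, the haematopoietic subunit of NF-E2, a transcription factor, and the WT group is wild type, with 3 samples in each from independent experiments. The labels name no treatment, and they do not say how the allele was made or whether livers were pooled. The source label gives cultured megakaryocytes, whereas the extraction label speaks of whole embryos. All 10 megakaryocyte markers examined, among them Itga2b, Gp9 and Vwf, were well above background on all 6 arrays.

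The array 75th percentile of the processed signal ran from 135 to 589, and the software placed 57.8% to 64.8% of probes well above background. Array 1 of p45-/- stood apart, with Pearson correlations across probes of 0.786 to 0.887 with the other arrays, which correlated with each other at 0.939 to 0.983. Nfe2, which encodes p45, had log2 levels of 5.88 ± 0.88 in p45-/- and 6.05 ± 0.71 in WT (mean ± SD, n = 3 each). Whether its probe falls in the deleted sequence is unknown, so the genotype was not checked by it, and directions below refer to the arrays as labelled. All 10 tested erythroid markers were higher in group mean in p45-/-, with a median log2 difference of 2.16. Their summed signal, in units of the array's 75th percentile, ran from 116 to 996 in p45-/- and from 89.4 to 364 in WT. In bulk RNA, fewer cells of a type and less RNA per cell cannot be told apart.

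The promoter windows of the genes on which the results turn are shown so that the sequence at their starts can be set beside the values. RefSeq (GRCm38.p6) gave 9 windows for 6 of the 7 genes, each from 250 bases before to 50 bases after a start site, written 5′ to 3′ on the gene's strand. Gucy1a1 and Gucy1b1, the genes of the alpha and beta subunit, are neighbours on chromosome 3 with 0 annotated genes between them, and each has windows of its own. Capitals mark the letters AGATAA on either strand, the motif bound by GATA factors.
Gucy1a1 (chr3:82145601-82145900, minus strand): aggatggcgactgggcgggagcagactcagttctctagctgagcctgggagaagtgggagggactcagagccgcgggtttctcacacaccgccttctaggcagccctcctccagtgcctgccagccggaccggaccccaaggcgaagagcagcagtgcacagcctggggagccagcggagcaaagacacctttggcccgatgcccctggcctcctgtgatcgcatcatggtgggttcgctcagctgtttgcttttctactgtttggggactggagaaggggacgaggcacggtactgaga
Gucy1b1 (chr3:82074662-82074961, minus strand): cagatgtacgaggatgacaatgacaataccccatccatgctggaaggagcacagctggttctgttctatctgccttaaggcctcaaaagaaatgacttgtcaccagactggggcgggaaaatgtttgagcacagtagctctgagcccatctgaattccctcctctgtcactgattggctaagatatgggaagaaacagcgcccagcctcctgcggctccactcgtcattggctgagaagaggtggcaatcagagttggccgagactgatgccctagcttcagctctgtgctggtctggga
Vasp (chr7:19271805-19272104, minus strand): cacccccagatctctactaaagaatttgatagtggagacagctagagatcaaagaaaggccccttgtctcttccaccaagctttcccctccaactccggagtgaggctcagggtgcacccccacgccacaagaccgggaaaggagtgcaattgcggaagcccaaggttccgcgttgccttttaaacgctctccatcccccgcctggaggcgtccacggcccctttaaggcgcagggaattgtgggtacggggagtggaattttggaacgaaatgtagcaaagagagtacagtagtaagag
Mrvi1 (chr7:110982412-110982711, minus strand): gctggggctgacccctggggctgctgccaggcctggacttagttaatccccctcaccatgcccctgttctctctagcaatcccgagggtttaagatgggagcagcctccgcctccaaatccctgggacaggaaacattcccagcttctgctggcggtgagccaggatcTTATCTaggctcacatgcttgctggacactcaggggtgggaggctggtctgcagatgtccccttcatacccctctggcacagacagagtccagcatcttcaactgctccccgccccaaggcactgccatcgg

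The core TGANTCA, which sites of NF-E2 share with those of AP-1 factors, was searched on both strands and was in 0 of the 9 windows, while 7.81% of all 32851 windows of this length hold it. With the letters TGC directly before it, as in longer NF-E2 sites, the core was in 0 of 9 windows and in 0.423% of all. AGATAA was in 2 of the 9 windows, those of Mrvi1 shown above and of Prkg1, and in 11.2% of all. The RUNX letters TGTGGT were in 1 window, of Gucy1a1 at its other start site (16.8% of all), and the ETS letters CCGGAAG in 1 window, of Pde5a (8.86% of all). These are matches of letters, and a window without them says nothing of binding elsewhere.

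Levels below are log2 processed signals minus the 75th percentile of the same array, differences are p45-/- minus WT, and levels of different probes cannot be set against each other. None of the 12 member probes passed limma's test at an adjusted p of 0.05, with adjusted p between 0.709 and 0.970, and the background was 0.0% of all probes tested in either direction. With the replicate number as a block 0 of 12 passed as well, with adjusted p between 0.171 and 0.894, beside a background of 0.188% lower and 0.129% higher. At an unadjusted p of 0.05 there were 2 member probes, both of Vasp, against 3.58% of all probes lower at that level. With the block there were 4, of Vasp and Gucy1b1, against 6.67%. In group mean 10 of the 12 probes were lower in p45-/-, where 56.9% of all probes were. In all 3 same-numbered pairs 7 of the 12 were lower, of Gucy1b1, Mrvi1, Vasp and Pde5a, where 25.7% of all probes were. The median over the 12 was -0.46, beside -0.086 over all probes tested, and probes of the same gene are not independent.

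**Figure D1:**
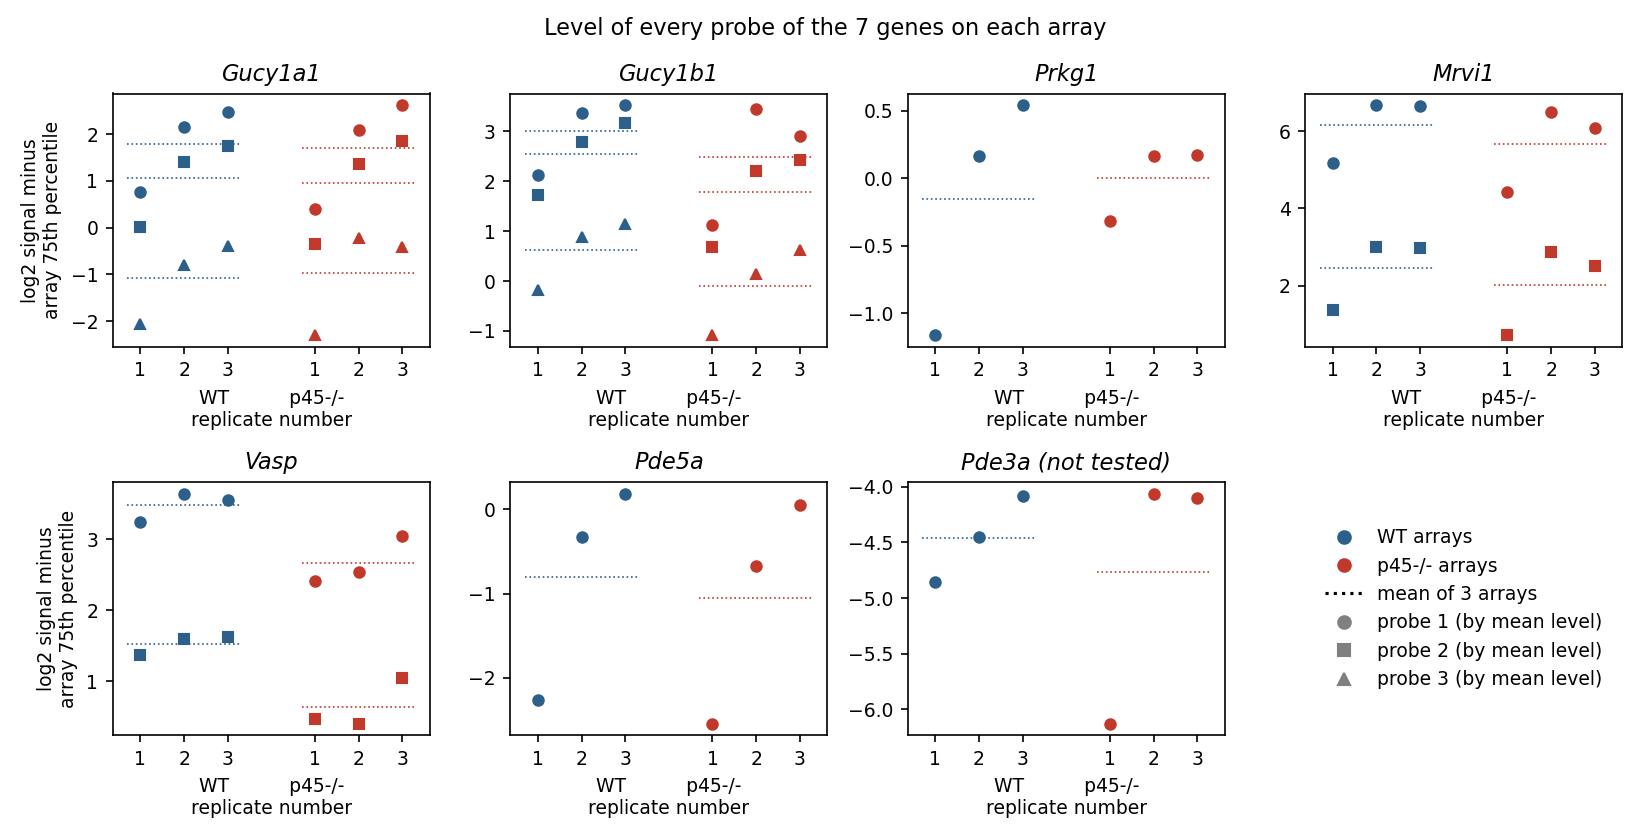
Log2 processed signal minus the array's 75th percentile (vertical axis, a scale of its own in each panel) for every probe of the 7 genes on the 3 WT and 3 p45-/- arrays. Points are single arrays, marker shapes are probes and dotted lines are group means of 3 arrays; for Vasp every p45-/- point lies below every WT point of the same probe, and for the other genes the groups overlap.

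Soluble guanylyl cyclase comes first in the pathway. Gucy1a1, its alpha subunit, had close group means. Its brightest probe, A_51_P199987, read 0.41, 2.10 and 2.62 in replicates 1, 2 and 3 of p45-/-, against 0.75, 2.16 and 2.47 in the same replicates of WT. In both groups array 1 was far below the other arrays, and the groups overlapped. The difference of -0.085 had an SE of 0.70 and a 95% interval from -1.76 to 1.59 (limma adjusted p = 0.970), so a change of about 3-fold in either direction lies within this interval.

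The other probes of Gucy1a1 gave the same picture. A_51_P199993 read -0.34, 1.37 and 1.85 in p45-/- and 0.013, 1.42 and 1.75 in WT. A_52_P452540 read -2.30, -0.22 and -0.41 in p45-/- and -2.07, -0.79 and -0.38 in WT. Their differences were -0.10 and 0.10, with groups that overlapped, so the sign of the Gucy1a1 difference depended on the probe. By same-numbered pair the 3 probes lay between -0.36 and -0.23 in pair 1, between -0.060 and 0.57 in pair 2 and between -0.028 and 0.15 in pair 3.

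Gucy1b1, the beta subunit that carries the haem to which nitric oxide binds, was lower in p45-/- in group mean by all 3 of its probes. Its brightest probe, A_52_P179068, read 1.12, 3.44 and 2.91 in p45-/- and 2.13, 3.38 and 3.53 in WT, replicates 1 to 3 in order. A_51_P253303 read 0.69, 2.20 and 2.44 in p45-/- and 1.72, 2.78 and 3.16 in WT. A_52_P592835 read -1.09, 0.14 and 0.63 in p45-/- and -0.17, 0.88 and 1.14 in WT. Array 1 was again the lowest of each group, and for each probe the highest p45-/- arrays lay above the lowest WT array.

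The differences of the 3 Gucy1b1 probes were -0.52 (SE 0.69), -0.78 (SE 0.59) and -0.73 (SE 0.56), with limma adjusted p of 0.800, 0.712 and 0.712. With the replicate block the adjusted p were 0.439, 0.202 and 0.225. The latter probes, A_51_P253303 and A_52_P592835, were lower in p45-/- in all 3 same-numbered pairs, by 1.03, 0.58 and 0.72 and by 0.91, 0.75 and 0.51 on the log2 scale. A_52_P179068 was lower in pairs 1 and 3 and differed by 0.064 in pair 2. Without p45-/- replicate 1 its difference was 0.16, and without replicate 1 of both groups it was -0.28. The differences of A_51_P253303 and A_52_P592835 were -0.23 and -0.24 without p45-/- replicate 1, and -0.65 and -0.63 without replicate 1 of both groups.

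Because both subunits are read on the same arrays, the level of one minus that of the other does not depend on the array's scaling factor. The mean of the 3 Gucy1b1 probes minus the mean of the 3 Gucy1a1 probes was 0.99, 0.85 and 0.64 in the p45-/- replicates, against 1.66, 1.42 and 1.33 in those of WT. Every p45-/- value was below every WT value, and here array 1 was the highest of each group. The group means were 0.82 ± 0.18 and 1.47 ± 0.17 (mean ± SD, n = 3 each), a difference of -0.65, which was -0.67, -0.58 and -0.69 in pairs 1, 2 and 3. A two-sided exact permutation test gave p = 0.1, the smallest that 3 arrays against 3 allow. All 9 pairings of a Gucy1b1 probe with a Gucy1a1 probe had a difference below 0, from -0.88 to -0.42. Of 23944 single probes taken against the Gucy1a1 mean, 2.16% had p45-/- arrays that were all below the WT arrays. That share is for single probes, whereas the Gucy1b1 value is a mean of 3 probes. Taken singly against the same mean, A_52_P179068 had groups that overlapped, and A_51_P253303 and A_52_P592835 had groups that did not. This comparison was chosen after the values of both genes were seen. It is a description of these arrays, and a ratio within an array does not show which of the subunits differed.

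Prkg1, the cyclic GMP-dependent protein kinase of platelets and smooth muscle, was read by 1 probe. It read -0.32, 0.16 and 0.17 in p45-/- and -1.16, 0.16 and 0.54 in WT. WT array 1 was the lowest of the 6 and WT array 3 the highest, so the p45-/- values lay within the range of WT. The difference of 0.16 had an SE of 0.49 and a 95% interval from -1.001 to 1.31 (limma adjusted p = 0.916). It was 0.85, -0.0011 and -0.37 in pairs 1, 2 and 3. Without WT replicate 1 it was -0.35, so its sign rested on that array.

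Mrvi1, also named Irag1, encodes the kinase substrate that sits on the inositol trisphosphate receptor and restrains calcium release. Its brighter probe, A_52_P409769, read 4.43, 6.50 and 6.09 in p45-/- and 5.17, 6.68 and 6.65 in WT. A_52_P673689 read 0.72, 2.88 and 2.50 in p45-/- and 1.36, 3.01 and 2.98 in WT. Both probes were lowest on array 1 of each group and a little lower in p45-/- than in the WT array of the same number. The differences were -0.49 (SE 0.67, adjusted p = 0.806) and -0.42 (SE 0.71, adjusted p = 0.844) in limma's test. In pairs 1, 2 and 3 the brighter probe differed by -0.74, -0.18 and -0.56. Without p45-/- replicate 1 the differences were 0.13 and 0.24, and without replicate 1 of both groups -0.37 and -0.31.

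Vasp, an actin-binding protein that the cyclic GMP and cyclic AMP kinases phosphorylate in platelets, was the one member whose groups did not overlap. Its brighter probe, A_51_P179131, read 2.41, 2.55 and 3.04 in p45-/- and 3.25, 3.65 and 3.55 in WT. A_52_P219314 read 0.46, 0.40 and 1.05 in p45-/- and 1.36, 1.60 and 1.62 in WT. On both probes the highest p45-/- array lay below the lowest WT array, which was the case for 8.96% of all probes tested.

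The group means of the brighter Vasp probe were 2.67 ± 0.33 in p45-/- and 3.48 ± 0.21 in WT (mean ± SD, n = 3 each), a difference of -0.82 (SE 0.30, 95% interval -1.54 to -0.091), or 1.76-fold lower. With quantile normalization it was -0.53, and with median scaling -1.33, where the median of all probes was -0.60. The other probe differed by -0.89 (SE 0.30, 95% interval -1.61 to -0.17), or 1.85-fold, and by -0.77 and -1.40 under those scalings. The limma adjusted p was 0.709 for both probes and 0.195 and 0.171 with the replicate block, so the difference did not pass over all probes. An exact permutation test gave p = 0.1 for each probe, two-sided, where 0.1 is the smallest possible. Within slide 2, which held replicates 1 and 2, the brighter probe differed by -0.97, and within slide 1, with replicate 3, by -0.51. Without replicate 1 of both groups the differences were -0.80 and -0.89, close to those over all arrays. In the same arrays the neutrophil markers were lower in p45-/- as well, 10 of 10 by group mean, with median -0.84, and their summed signal ran from 540 to 1044 in p45-/- and from 704 to 1276 in WT. Their part in the Vasp values was not tested.

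**Figure D2:**
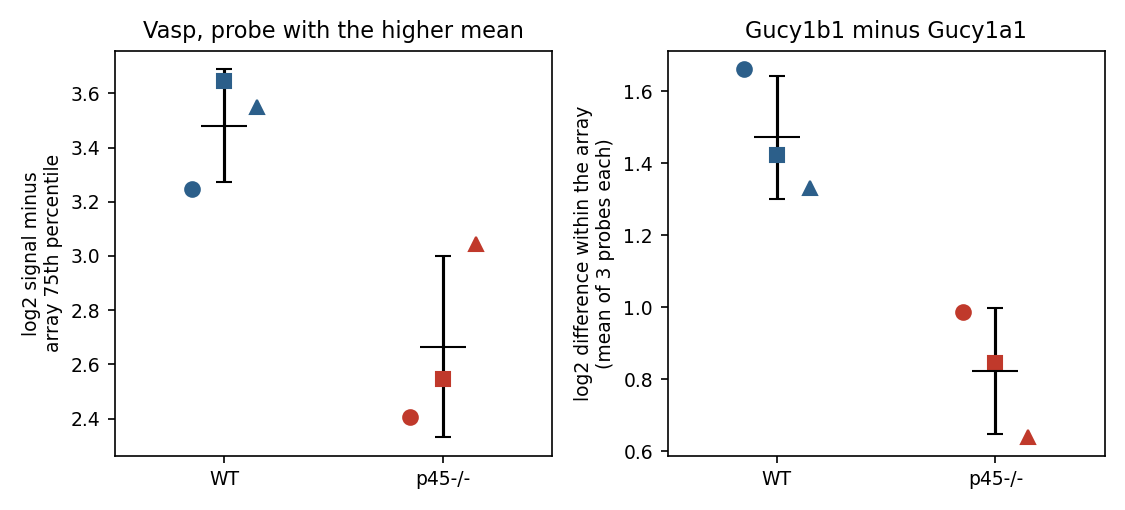
Left, log2 level of the brighter Vasp probe, and right, the mean of the 3 Gucy1b1 probes minus the mean of the 3 Gucy1a1 probes on the same array, for WT and p45-/- arrays (circle, square and triangle for replicates 1, 2 and 3, bars for the mean and SD of 3 arrays, axes not starting at 0). In both panels all p45-/- points lie below all WT points.

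Pde5a, the phosphodiesterase that cleaves cyclic GMP, was read by 1 probe at -2.55, -0.67 and 0.052 in p45-/- and -2.26, -0.33 and 0.19 in WT. The spread among arrays of a group was far wider than the distance between the groups. The difference of -0.26 had an SE of 0.86 and a 95% interval from -2.31 to 1.80 (limma adjusted p = 0.924). In the same-numbered pairs it was -0.29, -0.35 and -0.14, and with the replicate block the SE was 0.27 and the adjusted p 0.657. Without p45-/- replicate 1 the difference was 0.49, and without WT replicate 3 it was 0.24.

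Pde3a, the cyclic AMP phosphodiesterase that cyclic GMP inhibits and the main one of human platelets, was near the detection limit of its single probe. It read -6.13, -4.06 and -4.10 in p45-/- and -4.85, -4.45 and -4.09 in WT, and it was not well above background on array 1 of either group. On arrays 2 and 3, where it was detected, the p45-/- values differed from each other by 0.037 and the WT values by 0.37, and their ranges overlapped.

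**Figure D3:**
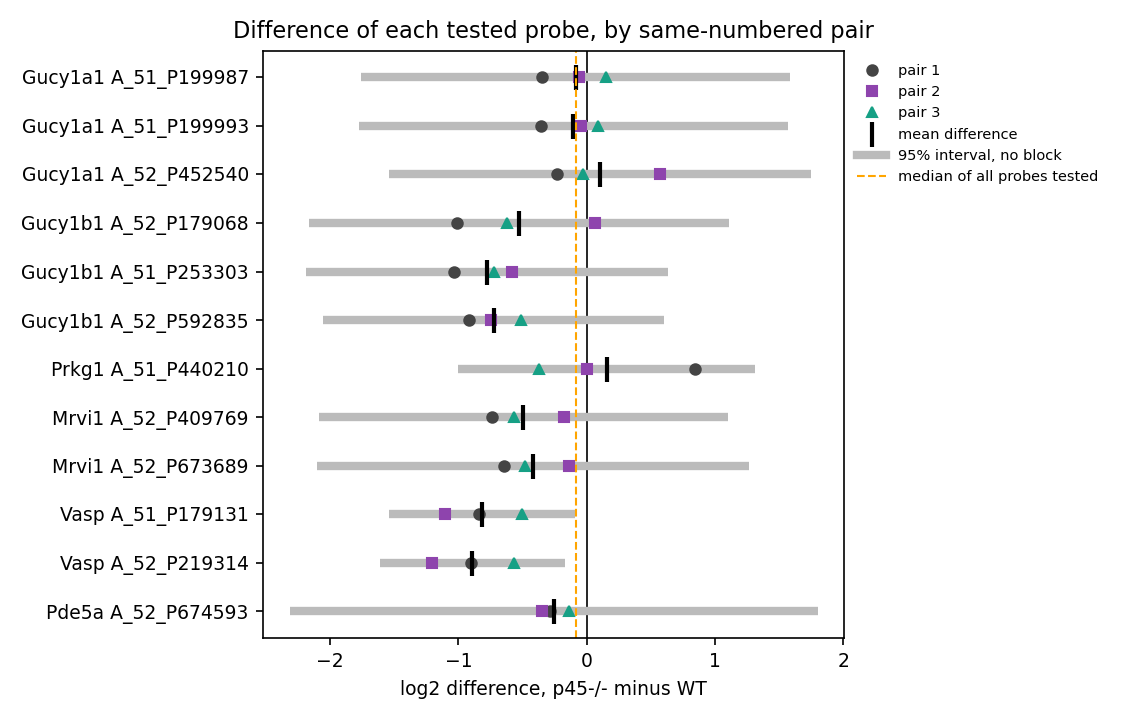
Log2 difference, p45-/- minus WT (horizontal axis), for the 12 tested probes, with the values of the 3 same-numbered pairs as symbols, the mean as a vertical tick and limma's 95% interval without a block as a grey bar. The bars of both Vasp probes end below 0 before any adjustment, those of the other genes span 0, and the dashed line is the median of all 23952 probes tested, -0.086.

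The widest movement of these genes was between arrays of the same group. On replicate 1, 9 of the 12 probes were at least 1 log2 unit below the mean of the group's other arrays in both genotypes, where 4.31% of all probes were. These were all probes of Gucy1a1, Gucy1b1, Mrvi1 and Pde5a. This comparison was chosen after the values were seen. Gucy1a1, by its brightest probe, differed on replicate 1 by -1.95 in p45-/- and -1.56 in WT. Pde5a differed by -2.23 and -2.19, and on this measure 1.09% of all probes in p45-/- and 0.551% in WT lay below it. Prkg1 differed by -0.48 in p45-/- and -1.52 in WT. Vasp differed by -0.39 and -0.35, beside medians over all probes of -0.39 and 0.059.

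Most megakaryocyte markers moved in the same direction on these arrays. Of the 10 markers, 7 were at least 1 log2 unit lower on replicate 1 in both groups, with medians of -1.43 in p45-/- and -1.30 in WT. Pf4, named after its values were seen, went the other way, by 0.11 in p45-/- and 0.25 in WT. Of the 8 mast cell and basophil markers tested 4 were at least 1 log2 unit lower in both groups, with medians of -1.28 and -1.35. Their summed signal ran from 4.88 to 17.9 in p45-/- and from 13.1 to 31.4 in WT. The erythroid markers had medians of 0.44 and 1.74, and 1 of 10 was lower in both groups. The summed signal of the megakaryocyte markers, in units of the array's 75th percentile, ran from 898 to 1724 in p45-/- and from 1059 to 1652 in WT, lowest on array 1 of each. Smooth muscle, which is known to use the same pathway, was checked with 10 markers, of which 6 were tested, and 1 of these was lower on replicate 1 of both groups. Their summed signal ran from 23.9 to 46.8 in p45-/- and from 36.2 to 53.6 in WT. The part of any of these cell types in the members' values was not tested.

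**Figure D4:**
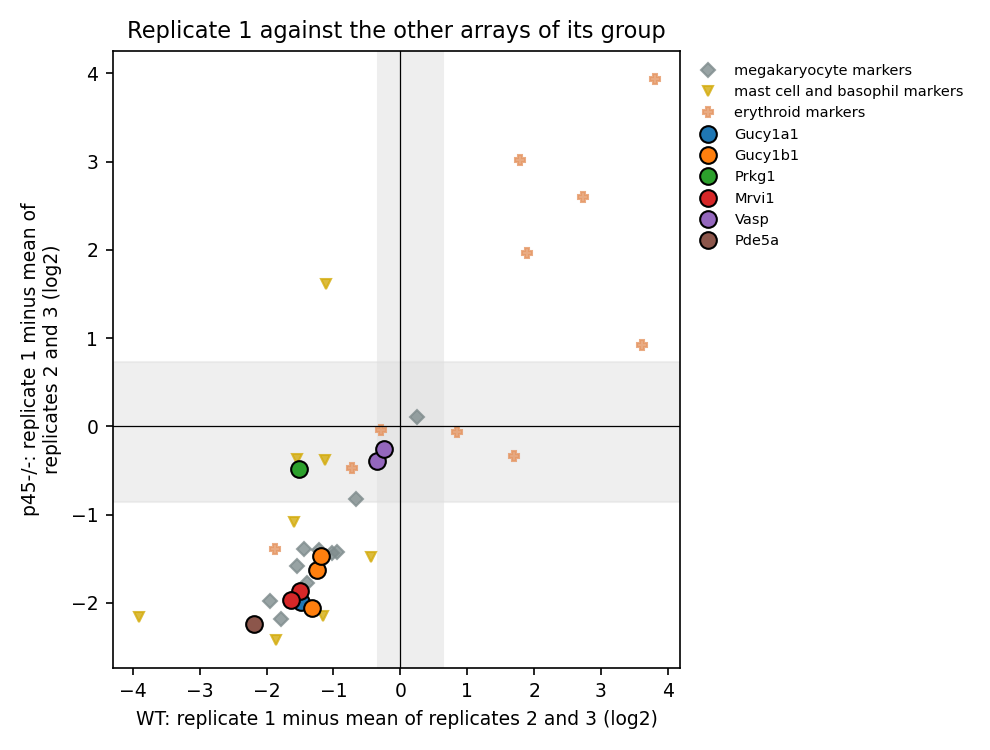
Replicate 1 minus the mean of replicates 2 and 3 of the same group, in log2 units, for WT (horizontal) and p45-/- (vertical). Large circles are the 12 tested member probes and small symbols are megakaryocyte, mast cell and erythroid markers. Shaded bands run from the lower to the upper quartile of all probes. Gucy1a1, Gucy1b1, Mrvi1 and Pde5a lie low in both groups near most of the megakaryocyte markers, Prkg1 is low in WT and Vasp is near 0.

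The members' patterns over the 6 arrays followed this. As a description over arrays that share the replicate 1 pair, Gucy1a1 and Pde5a correlated at r = 0.992 and Gucy1b1 and Mrvi1 at r = 0.993, while Vasp correlated with the other 5 genes at 0.18 to 0.56. Different probes of the same gene correlated at 0.90 to 0.9997. Among 12920 named genes, the profiles nearest to Gucy1a1 were those of Pkd1l3 (r = 0.996) and Fhl2 (r = 0.996), and to Gucy1b1 those of Herpud1 (r = 0.997) and Tango2 (r = 0.997). Nearest to Mrvi1 were Cnksr3 (r = 0.999) and Prkcq (r = 0.999), and to Pde5a Robo3 (r = 0.998) and Mcpt2, a mast cell protease (r = 0.997). Nearest to Prkg1 were Sdc2 (r = 0.975) and Iqgap2 (r = 0.966), and to Vasp Ehd1 (r = 0.999) and Rps6ka1 (r = 0.996).

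The other genes of cyclic nucleotide signalling were taken from 7 lists, with 76 genes on the array apart from the members and 61 tested. None passed limma's test over all probes, with or without the replicate block, and the smallest adjusted p were 0.511 and 0.0946. At an unadjusted p of 0.05 there were 5 lower and 1 higher, where 3.58% and 2.55% of all probes were. With the block there were 13 lower and 5 higher, against 6.67% and 12.8% of all probes. In group mean 44 were lower and 17 higher in p45-/-, with a median difference of -0.32, beside -0.086 over all probes. Without replicate 1 of both groups 35 were lower and the median was -0.077, beside 0.052 over all probes. The groups did not overlap for 9 lower genes and 1 higher gene of 61, where 8.96% and 4.47% of all probes did so.

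The nitric oxide synthases were not detected by these probes. Nos1, Nos2 and Nos3, each read by 1 probe, were not well above background on any of the 6 arrays, and these genes were named after their values were seen. Among the 5 tested genes of nitric oxide supply, the enzymes that remove the synthase inhibitor dimethylarginine differed in opposite directions. Ddah2 differed by -1.09 (SE 0.46, adjusted p = 0.709) and Ddah1 by 2.24 (SE 0.65, adjusted p = 0.633) in limma's test. Ddah1 differed by 0.31, 2.76 and 3.66 in pairs 1, 2 and 3, and hepatocyte markers, of which 8 of 8 were higher in p45-/-, had pair medians of -0.12, 1.31 and 1.87. Fibroblast and stromal markers, 10 of 10 higher by group mean, had pair medians of -0.80, 1.17 and 1.59. The part of either in the Ddah1 values was not tested.

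Of the guanylyl cyclases outside the members 1 of 4 was tested, the natriuretic peptide receptor Npr2, at -0.30 (SE 0.36). Its probes lay between -0.30 and 0.39. The other cyclic GMP kinase, Prkg2, was well above background on 1 p45-/- array and 0 WT arrays and was not tested. Of 13 tested phosphodiesterases 6 were lower and 7 higher, with a median of 0.25, or 0.083 without replicate 1 of both groups. Pde3b, the close relative of Pde3a, differed by -0.63 (SE 0.37) and Pde6d, the lipid-binding delta subunit, by -0.60 (SE 0.31), both with all p45-/- arrays below the WT arrays and a limma adjusted p of 0.709. These were 2 of the 13, beside 8.96% of all probes. Pde3b was lower in all 3 pairs, by 0.87, 0.95 and 0.081 on the log2 scale. Pde6d differed by -0.89, -0.89 and -0.028 in pairs 1, 2 and 3.

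The list of substrates and effectors of the cyclic nucleotide kinases held mostly genes with lower group means in p45-/-. Of the 21 tested, 20 had the lower group mean in p45-/-, with median -0.57, and 12 were lower in all 3 pairs, where 25.7% of all probes were. The pair medians of the list were -0.98, -0.52 and -0.31, beside -0.40, 0.075 and 0.043 over all probes. Without replicate 1 of both groups 17 of 21 were lower, with a median of -0.48. Megakaryocyte markers were lower in p45-/- by group mean in 8 of 10, with a median of -0.33, or -0.29 without replicate 1 of both groups, and neutrophil markers in 10 of 10, with a median of -0.84. Their part in the values of this list was not tested. Lasp1, an actin-binding kinase substrate, had levels of 5.68 ± 0.11 in p45-/- and 6.74 ± 0.19 in WT (mean ± SD, n = 3 each). The difference was -1.06 (SE 0.27) with a limma adjusted p of 0.511, and over its tested probes it ran from -1.17 to -0.82. Rap1gap2, which switches off the small G protein Rap1 in platelets, differed by -1.23 (SE 0.40, limma adjusted p = 0.709). No overlap between groups was seen for 4 of the 21, beside 8.96% of all probes, and the 4 were Lasp1, Rap1gap2, Itpr2, an inositol trisphosphate receptor, and Ppp1r12a, a myosin phosphatase subunit. Itpr2 and Ppp1r12a were named after their values were seen. The 1 higher gene was Hspb1, at 0.051, also named after its value was seen.

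In the parallel cyclic AMP arm, 10 of 14 tested receptors, G protein and cyclase genes were lower, with a median of -0.19, or -0.025 without replicate 1 of both groups. Ptger4, a prostaglandin E2 receptor, differed by -1.16 (SE 0.34, adjusted p = 0.633) and Adora2b, an adenosine receptor, by -1.01 (SE 0.34, adjusted p = 0.709) in limma's test. Each had all p45-/- arrays below the WT arrays, which held for 2 of the 14, beside 8.96% of all probes. The kinase subunits and exchange factors had a median of -0.090 over 7 genes, 4 of them lower, and of 0.19 without replicate 1 of both groups. Prkar2b, the regulatory subunit of the cyclic AMP-dependent kinase that platelets hold, differed by -0.65 (SE 0.66), and Prkar1b by 0.65 (SE 0.57).

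**Figure D5:**
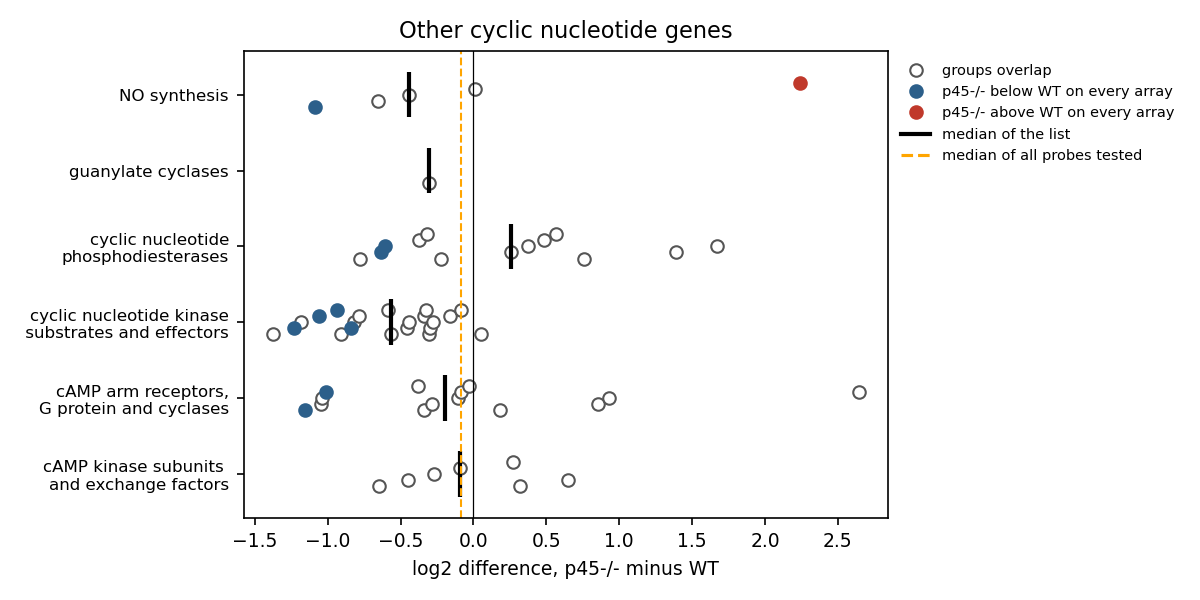
Log2 difference, p45-/- minus WT (horizontal axis), for the 61 tested genes of cyclic nucleotide signalling that are not members, by list; each point is a gene and black ticks are list medians. The kinase substrates lie mostly below 0, with a median of -0.57, while the phosphodiesterases lie on both sides, and no gene passed the test over all probes.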

How the data were processed

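Total RNA was amplified, labelled with Cy3 and hybridised to 6 single-colour Agilent arrays, per the labels' protocols. Each deposited intensity had the background subtracted and was detrended by Agilent Feature Extraction 10.7.3.1, per the file headers, while the submitters' processing notes name 10.1. The series' value table, as deposited, held the same linear intensities within 0.497%, with no centring and, with 1 channel, no direction to settle.

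From these, log2 intensities minus each array's 75th percentile over non-control probes were computed. Outlier spots, 32 to 80 on each array, were dropped, none was saturated, and a probe was tested where every array of either group placed it well above background. Probes were named through RefSeq accessions without versions (GRCm38.p6, names only), which named 26690 of 41174 probes. A gene with several probes is summarised in counts by its brightest, and all probes of members are given. Groups were compared by two-sided tests in limma 3.58.1 (R 4.3.3), adjusted after Benjamini-Hochberg over 23952 probes, with 4 residual degrees of freedom. The fit was checked on simulated data with larger changes, and less noise, than most member probes showed. That check does not say how often the fit would find changes in these arrays. Nothing says whether samples came from separate animals beyond the design's independent experiments, and p-values measure the spread between these samples. Precision is limited by the small number of arrays.

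For same numbers, array deviations from their group mean correlated at 0.638, 0.573 and 0.297, so the numbers were taken to pair samples, from the data and not from the labels. Deviations within a group sum to 0, so these correlations are not independent of each other. Replicate 3 of p45-/- correlated at 0.591 with WT replicate 2, above its 0.297 with WT replicate 3, so its pairing by number was not borne out. The same-numbered pairs and the replicate block rest on this assumed pairing. Replicate 3 of both groups lay on slide 1, the other arrays on slide 2, and each slide had a scan of its own.

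Members and lists were chosen with earlier results of these data known. Named beside the members were genes of the lists past the threshold, up to 2 per list and direction with the largest difference among genes whose groups do not overlap, or the 2 with the smallest p, and the 2 nearest profiles of each member. Tried as alternatives were a block for replicate or for slide, single slides, normexp with an offset of 50 (on median signals), quantile or median scaling, the value table, other filters, 1 probe per gene, a pseudocount of 16, array weights and leaving out arrays.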

Additional observations from a re-analysis of the deposited data

How the results depend on the processing

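No member probe passed the test under any of 21 alternatives with a test, with a lowest adjusted p of 0.101 (array weights). The direction held throughout for both Vasp probes and for Gucy1b1 probes A_51_P253303 and A_52_P592835, and it turned at least once for the other 8 probes. Gucy1b1 minus Gucy1a1, which a scaling factor, a block or a filter cannot change, ran from -0.76 with normexp to -0.48 with quantile normalization. Leaving out 1 array at a time, the differences ranged from -1.004 to -0.69 and -1.10 to -0.77 for the Vasp probes. For Gucy1b1 A_51_P253303 and A_52_P592835 the differences ranged from -1.20 to -0.23 and -1.12 to -0.24, smallest for both without p45-/- replicate 1. They ranged from -0.61 to 0.57, -0.63 to 0.55 and -0.39 to 0.77 for Gucy1a1 probes A_51_P199987, A_51_P199993 and A_52_P452540, from -1.001 to 0.16 for Gucy1b1 A_52_P179068, from -0.99 to 0.13 and -0.96 to 0.24 for Mrvi1, from -0.99 to 0.49 for Pde5a and from -0.35 to 0.50 for Prkg1. Other turned signs, in the same order of Gucy1a1 probes, were 0.15, 0.091 and -0.028 within slide 1, with 1 array a group and no test. With array weights the first pair were 0.050 and 0.022, and without replicate 1 of both groups 0.046 and 0.023, with or without the block. A_51_P199993 was 0.0080 with normexp, and A_52_P452540 was -0.41 with median scaling and -0.20 under quantile scaling. Prkg1 was -0.35 with median scaling, -0.37 within slide 1, -0.17 with array weights and -0.19 without replicate 1 of both groups, with or without the block. Pde5a was 0.18 with normexp. Median scaling moved the median of all probes to -0.60 and that of the other pathway genes to -0.83.

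Of the 6 tested members, 5 were lower in group mean, 1 without p45-/- replicate 1 and 3 without WT replicate 3. Leaving out 1 array gave 1 to 6. The count of probes called in all was 0, and 76 with the replicate block, 5 with the block and 1 probe per gene, 13 with median scaling, 517 with array weights, 1 without WT replicate 1 and 21 without replicate 1 of both groups. Leaving out 1 array gave 0 to 1. The block changed no call of a member or pathway gene. The causes were not tested. Combining the block with 1 probe per gene, or with leaving out replicate 1 of both groups, was chosen after seeing the data.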
